A study of Homo sapiens with 6 samples.

Results

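SLC7A5, the light chain of the large neutral amino acid transporter LAT1, and 9 other plasma membrane amino acid transporter genes were examined for H3K27ac in SU-CCS-1 cells. The 10 genes (SLC7A5, SLC7A8, SLC3A2, SLC7A11, SLC7A1, SLC7A2, SLC7A6, SLC1A5, SLC43A1 and SLC43A2) were selected on measured peak width and position, because SLC7A5 held the widest peak of the list, and the others were added as its partner or as functional relatives. A peak was assigned to a gene when it overlapped the GENCODE version 44 gene body or lay within 50 kb of it, and the term promoter peak was kept for those that reached to within 3 kb of any start site annotated for the gene. By this rule 43 of the 30784 peaks fell to 9 of the 10 genes, out of 20015 protein-coding genes in all, and no peak was assigned to more than 1 of them.

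SU-CCS-1 is an established human clear cell sarcoma line that carries the EWSR1::ATF1 fusion. The series holds 3 H3K27ac immunoprecipitations and 3 inputs of these cells, and the labels do not say whether the replicates came from separate cultures. All 6 samples carried the fusion, so no comparison with cells that lack it can be made. The data are 1 merged list of peak positions in hg38, with no read count, height or score and no column for a replicate, so neither depth nor replicate error can be given. A locus without a peak fell below the caller's cutoff or was removed afterwards and is not shown to lack the mark. Width depends on signal height and on how the caller joined neighbouring stretches. The narrowest peak of the list measured 0.4 kb, so widths close to that value lie at the floor of the list. In a bulk culture, the share of cells that carry the mark and its level per cell cannot be told apart. As a check of the line, all 4 genes chosen as markers of clear cell sarcoma had a promoter peak. The share over all protein-coding genes was 63.4%, so the check is weak. The widest measured 18040 bases at SOX10, 3390 at MITF, 5530 at PMEL and 1010 at S100B, beside a median of 1600 over coding genes with one.

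H3K27ac, acetylation of a lysine in the tail of histone H3, is found at active promoters and enhancers. SLC7A5 imports leucine and other large neutral amino acids in exchange for glutamine, and it reaches the cell surface only when paired by a disulfide bond with the heavy chain SLC3A2, also called CD98. SLC7A8, SLC7A6 and SLC7A11 are light chains that pair with the same heavy chain. Imported leucine and arginine are sensed at the lysosome and activate the kinase complex mTORC1, and shortage of amino acids raises the transcription factor ATF4, which is known to induce several of these transporters.

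Promoter sequences of 8 of the 10 genes were matched in RefSeq (GRCh38.p14, 250 bases before to 50 bases after each start). SLC7A11 and SLC7A2 were not matched. The stretches upstream of 6 starts are shown to go with the peaks described below: the start inside the widest peak, the start inside the heavy chain's widest peak, the SLC7A8 start without a peak and the one with a peak, and 2 starts inside narrow peaks. Bases that an annotated exon overlaps were left out. Capitals mark matches to the E-box CACGTG or to the antioxidant response core TGACNNNGC, and the match at SLC3A2 also contains the AP-1 site TGAGTCA, read on the other strand. Other motifs searched, named below, were absent from these stretches. An antioxidant response core that spans the SLC7A5 start lies only partly in the stretch shown and is not marked. Matches were not kept to starts with a peak. Over all RefSeq starts of these genes, 6 of the 13 whose 300-base window overlapped a peak held a match to a searched motif, and so did 3 of the 5 without a peak, 2 of them at SLC1A5 and 1 at SLC43A2. The MANE start of SLC3A2, in the same peak as the start shown, held none.
SLC7A5, chr16:87869508-87869757, minus strand: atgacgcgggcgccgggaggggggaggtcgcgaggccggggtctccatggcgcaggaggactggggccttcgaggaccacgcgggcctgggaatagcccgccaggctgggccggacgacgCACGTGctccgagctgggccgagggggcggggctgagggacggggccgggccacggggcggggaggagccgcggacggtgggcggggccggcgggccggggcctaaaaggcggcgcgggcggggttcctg
SLC3A2, alternative start, chr11:62881454-62881697, plus strand: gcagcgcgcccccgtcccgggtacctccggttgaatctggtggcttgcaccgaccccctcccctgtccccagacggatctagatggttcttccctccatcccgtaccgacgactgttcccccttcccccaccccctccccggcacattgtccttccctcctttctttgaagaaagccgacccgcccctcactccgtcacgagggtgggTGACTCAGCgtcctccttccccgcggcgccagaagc
SLC7A8, reference start, chr14:23183675-23183910, minus strand: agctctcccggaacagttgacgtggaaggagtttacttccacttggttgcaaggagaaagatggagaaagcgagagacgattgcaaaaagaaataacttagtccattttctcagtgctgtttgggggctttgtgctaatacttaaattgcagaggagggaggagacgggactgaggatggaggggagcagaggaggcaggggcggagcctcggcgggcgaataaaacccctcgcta
SLC7A8, internal start, chr14:23154451-23154643, minus strand: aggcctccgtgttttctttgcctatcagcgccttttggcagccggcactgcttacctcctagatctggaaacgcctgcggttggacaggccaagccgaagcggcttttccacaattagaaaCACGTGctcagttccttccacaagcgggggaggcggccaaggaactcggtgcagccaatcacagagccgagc
SLC43A1, chr11:57515781-57515952, minus strand: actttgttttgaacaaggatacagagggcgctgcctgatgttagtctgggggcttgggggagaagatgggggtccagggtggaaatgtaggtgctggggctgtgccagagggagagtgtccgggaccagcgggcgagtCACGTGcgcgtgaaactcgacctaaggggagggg
SLC7A6, chr16:68264276-68264515, plus strand: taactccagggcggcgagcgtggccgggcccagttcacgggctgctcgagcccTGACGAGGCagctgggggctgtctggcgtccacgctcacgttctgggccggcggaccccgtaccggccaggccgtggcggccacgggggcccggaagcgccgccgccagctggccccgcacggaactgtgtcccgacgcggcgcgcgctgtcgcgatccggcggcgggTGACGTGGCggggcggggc

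The 43 peaks covered 93.06 kb in sum, and the widest SLC7A5 peak alone held 38.4% of those bases. Without it the remaining peaks summed to 57.37 kb. Their median width was 910 bases, against 1060 bases over all peaks of the list. By position, 16 were promoter peaks of the transporter itself, with a median of 1155 bases, and 15 were promoter peaks of a neighbouring protein-coding gene, with a median of 1270 bases. Some of the 16 also lay within 3 kb of a start of a non-coding gene and were counted with the transporter. Another lay only at the promoter of a non-coding gene, and 11 were distal, beyond 3 kb of any start site, with a median of 630 bases. Gene bodies held 22 of the peaks and the flanks held 21. The map of peaks around each start site shows how unevenly they were spread over the 10 genes.

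**Figure D1:**
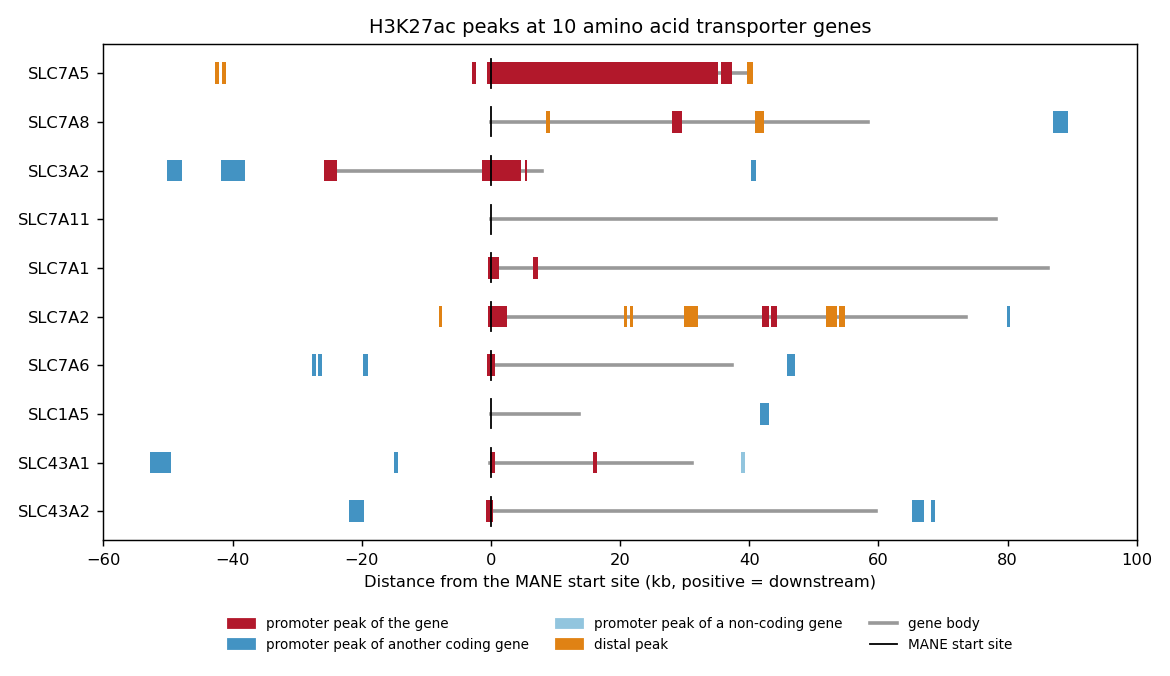
Peaks of H3K27ac at the 10 genes, drawn to scale against the distance in kb from the MANE start site of each gene (the start of the reference transcript), with positive values downstream. Boxes are peaks coloured by kind and grey lines are gene bodies. The widest peak spans most of SLC7A5, SLC7A11 has no peak, and the SLC1A5 body has none.

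A promoter peak was present at 8 of the 10 genes, or 80%, beside 63.4% of all protein-coding genes (95% Wilson interval 62.7 to 64.1, counting only). With 10 genes the difference from that background is not read as a result. SLC1A5 and SLC7A11 were the members without one. At the start of the MANE transcript, the reference transcript agreed by RefSeq and Ensembl, 7 genes had a peak within 3 kb, beside 60.3% of coding genes (59.6 to 61). SLC7A8 was the gene that had a promoter peak only at other starts. Over all annotated transcripts, 47 of 92 start sites lay inside a peak, or 51.1%, beside 41.1% of the 146322 start sites of all coding genes. SLC3A2 supplied 20 of the 47, and without it the count was 27 of 71, or 38%.

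SLC7A5 lies on chromosome 16 (hg38 chr16:87830023-87869507, minus strand, ENSG00000103257.9) and measures 39.48 kb. Its main peak ran from 87834421 to 87870110, a width of 35690 bases. The next widest peaks of the list measured 28350 and 25790 bases, so the SLC7A5 peak was 1.26 times as wide as the second. This width is the value that chose the gene and is given as a description. The order held for single peaks only. When peaks up to 1 kb apart were joined, the SLC7A5 span of 37.94 kb ranked 4, and the widest span was 57.05 kb on chromosome 14. With a joining distance of 3 kb it ranked 10, at 43.47 kb against 96.61 kb for the widest, on chromosome 22.

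Most of the SLC7A5 peak lay in the gene body. It began 603 bases upstream of the start and ended 35086 bases downstream, so that 98.3% of it lay on the transcribed side. Among 10312 coding genes with the MANE start inside a peak, the median peak measured 1590 bases, with 665 bases upstream and 849 downstream. The upstream reach at SLC7A5 was therefore close to the median, and the width lay in the gene. Exons 1 to 8 of its 10 exons and 8 of its 9 introns were wholly inside the peak. It also covered 96.1% of exon 9 and none of exon 10, the 3003-base last exon. Exons made up 4.33% of the peak, and intron 1 with 17035 bases was the longest intron. All 3 annotated start sites of the gene, at 0, 5868 and 32702 bases from the MANE start, were inside it.

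Around this peak were 5 narrower ones. A 1740-base peak followed after a gap of 510 bases and covered part of the last intron and the beginning of exon 10. It held no start site and counts as a promoter peak through the internal start at 32702 bases. An 860-base distal peak lay past the end of the gene. Upstream, a 640-base peak lay after a gap of 1670 bases, and distal peaks of 600 and 630 bases lay at -41.56 and -42.71 kb. No peak in the SLC7A5 window held the promoter of another protein-coding gene, and the non-coding genes with a start in reach were MIR6775 and ENSG00000260466. Peaks covered 93.3% of the gene body and left 2658 of its bases uncovered. More of the body was covered in 0.899% of coding genes, and a larger sum of peak width within 50 kb than the 40.16 kb of SLC7A5 was found in 0.455%. Both values rest largely on the peak that chose the gene and are given as a description.

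**Figure D2:**
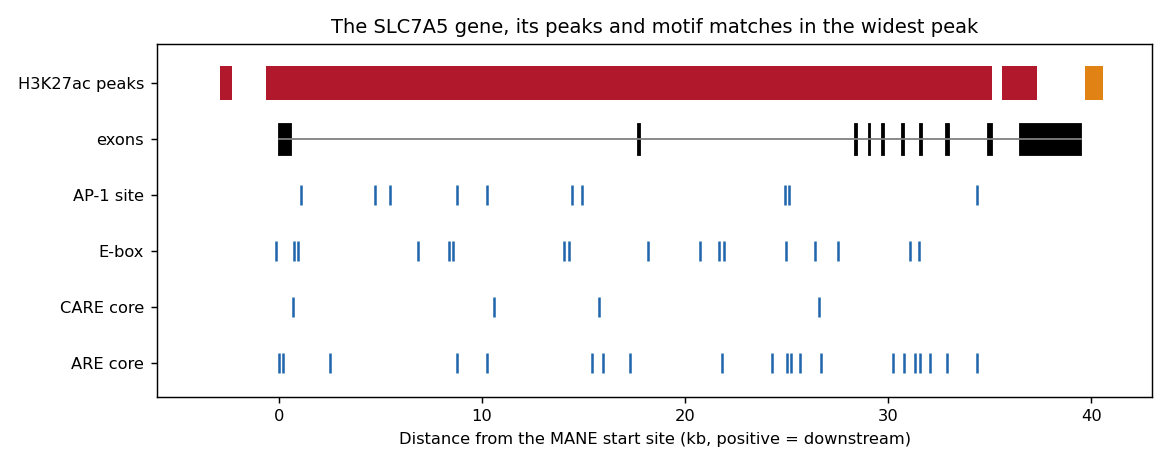
The SLC7A5 gene with its peaks (red, promoter peaks; orange, distal), its 10 exons (black) and matches to 4 motifs in the widest peak (blue ticks), against the distance in kb from the MANE start site. The peak ends inside exon 9 at 35.09 kb, and matches to the E-box and the AP-1 site are spread over introns 1 and 2.

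Genes of like length were ranked by the share of the body inside 1 peak. SLC7A5 stood at 88.9%. That share rests on the peak width that chose the gene, so its place in this ranking is a description only. Among 2726 coding genes of 30 to 50 kb, the median was 2.02%, 748 had no peak in the body, 17 exceeded 20% and 2 exceeded 50%. The other gene over 50% was GPSM1, a modulator of G protein signalling on chromosome 9, with 73.6% of its 32.13 kb in a peak of 28350 bases. SLCO4A1, an organic anion transporter, followed at 35%, then WFDC1, a secreted protease inhibitor family member, at 33.3%. PCID2, an mRNA export factor, stood at 30.8% and SSU72, a phosphatase of the RNA polymerase II tail, at 30.3%. SLC7A5 and GPSM1 were also the 2 genes over 50% among all 9514 coding genes of 30 kb or more. That count is for a single peak, and 19 of these genes had over 50% of the body in peaks of any number.

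SLC3A2, the heavy chain, is on chromosome 11 (chr11:62856004-62888880, plus strand) and held the second widest peak of the 10 genes. This peak measured 5990 bases, ranked 413 in the list, and reached 1345 bases upstream and 4644 bases downstream of the MANE start. A wider promoter peak was found in 1.46% of coding genes. It held 13 of the 21 start sites, among them the alternative start shown above. A peak of 1890 bases covered another 7 start sites about 25 kb upstream, where the non-coding host gene SNHG1 and its small nucleolar RNAs also start, so that peak cannot be assigned to 1 gene. A 410-base peak lay 5.205 kb downstream of the MANE start. In all 20 of the 21 start sites were inside a peak, and 22.5% of the body was covered. The remaining 3 peaks in the window lay at promoters of other coding genes. Those of 2230 and 3800 bases were at WDR74, a ribosome assembly factor, with STX5, a Golgi syntaxin, and TEX54 also at the first. The peak of 830 bases was at CHRM1, a muscarinic acetylcholine receptor.

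SLC7A8, the LAT2 light chain, has its MANE start at chr14:23183660 on the minus strand. None of the 4 start sites clustered there had a peak within 3 kb, and the nearest was an intronic peak of 540 bases, 8.56 kb downstream. A 1540-base peak instead covered 5 internal start sites between 28202 and 29267 bases downstream. A further intronic peak of 1500 bases lay 40.82 kb downstream, and the window's widest, 2250 bases, was at the promoters of ACIN1, a splicing-associated factor, and C14orf119. SLC7A8 thus had H3K27ac at an internal promoter and none listed at the reference start. Of the sequences shown above, the reference start had a GC content of 53% with a CpG observed to expected ratio of 0.682, and the internal start at 29267 bases had 63% with a ratio of 0.549. The RefSeq start at 28202 bases, also inside the peak, had 51.7% with a ratio of 0.151.

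SLC7A6, the y+LAT2 light chain, which exchanges cationic for neutral amino acids, had 1 promoter peak of 1150 bases that held 8 of its 17 start sites. It reached 525 bases upstream and 624 downstream and covered 1.7% of the body. The other peaks of its window were at ESRP2, an epithelial splicing regulator (630 bases each in a pair), at PLA2G15, a lysosomal phospholipase (910 bases), and at PRMT7, an arginine methyltransferase, with SLC7A6OS (1270 bases). SLC7A11, the cystine and glutamate exchanger xCT, had no peak in its 78.25 kb body or within 50 kb. Its nearest peak lay 86.8 kb away. This was the only one of the 10 genes with an empty window, beside 16.9% of coding genes (16.4 to 17.4). Among the light chains that share the SLC3A2 heavy chain, SLC7A5 was chosen for its width. Of the others, the widest promoter peak measured 1540 bases at SLC7A8 and 1150 at SLC7A6, and SLC7A11 had none.

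The cationic amino acid transporters differed in the number of peaks. SLC7A1, or CAT1, had a 1670-base peak at its MANE start, from 392 bases upstream to 1277 downstream, and a 770-base peak in the gene, 6.538 kb downstream. No other peak lay in the window of this 86.28 kb gene, and its summed width of 2.44 kb was exceeded by 59% of coding genes. SLC7A2, or CAT2, on chromosome 8, had 10 peaks, the most of the 10 genes. The widest, 2930 bases, lay at its MANE start and reached 2442 bases downstream. A wider promoter peak was found in 8.49% of coding genes. Another 7 peaks of 470 to 2170 bases were intronic, 5 of them distal and 2 next to internal start sites, and in all 13.9% of the body was covered. The flanks held a 480-base distal peak and a 580-base peak at PDGFRL.

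SLC1A5, the glutamine transporter ASCT2, had no peak in its 13.71 kb body or at any of its 6 start sites. The only peak in its window, 1460 bases, lay 27.91 kb from the body and 41.62 kb from the MANE start. The LAT3 and LAT4 genes, uniporters of branched-chain and aromatic amino acids that need no heavy chain, had narrow promoter peaks. At SLC43A1 the peak at the MANE start measured 800 bases and one at an internal start 700 bases. At SLC43A2 the peak measured 1040 bases, 786 of them upstream, and covered 0.513% of the body. A wider promoter peak was present in 55.7% of coding genes for SLC43A1 and in 49.3% for SLC43A2. Wider peaks in both windows belonged to neighbours, 3260 bases at UBE2L6, a ubiquitin-like conjugating enzyme, and 2310 bases at SCARF1, RILP and PRPF8. Smaller ones lay at TIMM10 (580 bases), at the non-coding ENSG00000255301 (650 bases) and at PITPNA (510 and 1820 bases).

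**Figure D3:**
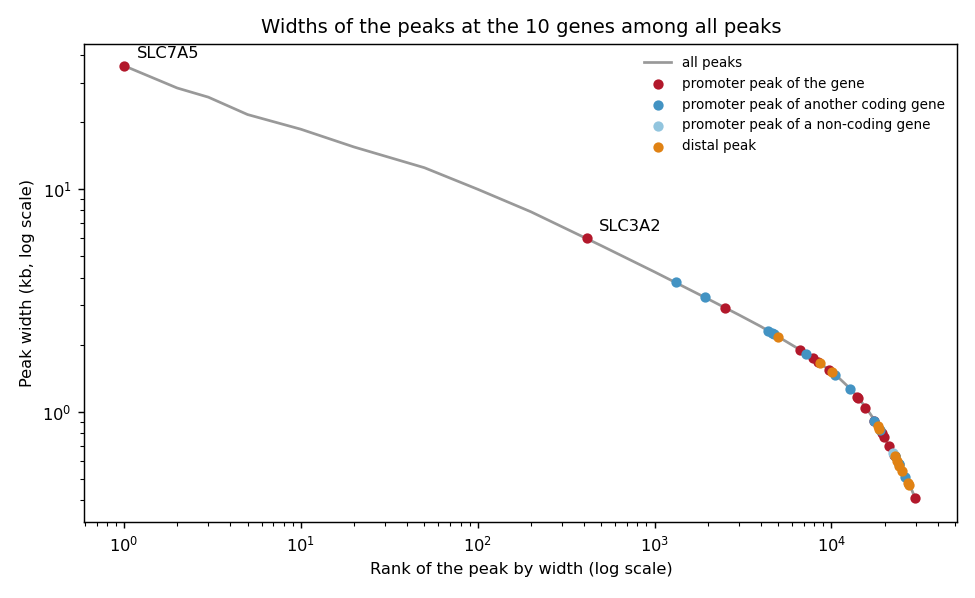
Width in kb of the 43 peaks at the 10 genes (points, coloured by kind) on the ranked widths of all 30784 peaks (grey line), with both axes on a log scale. SLC7A5 sits at rank 1 with 35.69 kb and SLC3A2 at rank 413 with 5.99 kb, and all other peaks of the 10 genes rank lower.

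Neighbouring peaks were stitched at the distance used in the study, which lies between the 5 and 25 kb tried as alternatives, and ranked by summed width. Of 17049 regions so made, 879 lay past the point where the ranked curve reaches a slope of 1, at 7.97 kb. These are regions of wide peaks and not super-enhancers called on signal. Such a region overlapped the body or promoter of 1 of the 10 genes, SLC7A5, beside 7.67% of coding genes (7.31 to 8.05). The peak that chose SLC7A5 exceeds this limit alone, so its count here was fixed by the choice. Its count under the alternatives below is no separate support, and with 10 genes the share is not read as a result. The SLC7A5 region ranked 22, with 4 peaks that summed to 38.93 kb of its 43.47 kb. The regions of SLC3A2, at rank 896 with 7.92 kb, and of SLC7A2, at rank 934 with 7.77 kb, lay just outside the limit. The SLC3A2 region was the one at its upstream start, with the WDR74 peaks. Both passed when peaks up to 25 kb apart were stitched, where 3 of the 10 genes were counted beside 11.1% of coding genes. After removal of every peak that the 2.5 kb to each side of a start site fully contained, 460 regions lay past the point, and SLC7A5 was again the 1 gene counted, beside 2.53% of coding genes. At the 50 kb limit of the windows, the last peak inside was that of UBE2L6, 49.37 kb from SLC43A1, and the first outside was a 1530-base peak 50.05 kb from SLC3A2.

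Motifs were counted on both strands in the widest SLC7A5 peak, in all peaks, and in the 98 peaks over 10 kb. The motifs were the ATF/CREB site TGACGTCA, bound by ATF1, its flexible form TGANNTCA, which includes it, the AP-1 site TGAGTCA, the amino acid response core TGATGNAA, bound by ATF4 with C/EBP factors, the E-box CACGTG, bound by MYC and MITF, and the antioxidant response core TGACNNNGC, bound by NRF2. A match describes the letters and not a bound site. The SLC7A5 peak held no TGACGTCA, which occurred 19.1 times per Mb in all peaks and 11.2 in the wide ones. A peak of this width at either rate would hold less than 1 match. It held 20 TGANNTCA (560 per Mb, beside 466 in all and 528 in wide peaks). AP-1 sites numbered 10, or 280 per Mb beside 150 and 201, and 27 of the 98 wide peaks had a higher rate.

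The E-box occurred 17 times in the SLC7A5 peak, or 476 per Mb, beside 192 in all peaks and 263 in wide ones, and 11 of the 98 wide peaks had a higher rate. The E-box contains a CpG, of which the peak had 32.3 per kb, beside 41.2 in all peaks and 26.4 in wide ones, and 28 of the 98 wide peaks had more. The part of base composition in the E-box rate was not tested. Per 100 CpG, it held 1.47 E-boxes, beside 0.466 and 0.997. Of the 17, 7 lay in intron 1, 7 in intron 2, 2 in other introns and 1 at position -130, in the promoter shown above. The amino acid response core was found 4 times, or 112 per Mb beside 112 in all peaks and 139 in wide ones, of which 44 of 98 had a higher rate. The antioxidant response core was found 21 times, or 588 per Mb beside 448 and 516. Of the AP-1 sites, 3 were also part of an antioxidant response core. Stretches in which over 4 triplets TGA or TCA followed each other, at most 5 bases apart, numbered 4, or 112 per Mb beside 52.7 and 65. A higher rate of these stretches was found in 16 of the 98 wide peaks.

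Single sites in the introns of SLC7A5 are shown for the motifs of the amino acid response, for the E-boxes nearest the start, and for the overlapping AP-1 and antioxidant response matches, with the motif in capitals.
Amino acid response core at 0.681 kb, intron 1, chr16:87868808-87868837, plus strand: caggggcgtagTGATGCAAggatgcaggga
Amino acid response core at 15.76 kb, intron 1, chr16:87853731-87853760, minus strand: gaatgagcgagTGATGCAAtcagccggcct
E-box at 0.775 kb, intron 1, chr16:87868715-87868744, plus strand: atgaaagaaacgCACGTGgtttctgggacc
E-box at 0.964 kb, intron 1, chr16:87868526-87868555, plus strand: gctcagttactcCACGTGggtgccacgcaa
Overlapping match at 8.76 kb, intron 1, chr16:87860729-87860757, plus strand: gaggtcaggaTGACTCAGCagggatcgag
Overlapping match at 10.23 kb, intron 1, chr16:87859257-87859285, plus strand: ctcttccagtTGACTCAGCtcacaaggcc
Overlapping match at 34.36 kb, intron 8, chr16:87835133-87835161, plus strand: gctgggggatTGACTCAGCtgtcctgaat

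Along the SLC7A5 peak, CpG was densest next to the start. The first 5 kb downstream of the start had a GC content of 53.1% and 39.6 CpG per kb, and the following 6 stretches of 5 kb had 56.1 to 61% GC and 26.2 to 32.4 CpG per kb. The 300-base promoter itself had 80.3% GC and a CpG ratio of 0.98. Over the whole peak, GC content was 58.5% and the CpG ratio 0.378, and 19 of the 98 wide peaks had a higher GC content. Of the AP-1 sites, 7 of 10 lay in intron 1, which made up 17035 of the 35690 bases of the peak. Of the 21 antioxidant response cores, 7 lay between 30 and 35 kb. Whether sites were placed unevenly was not tested.

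In the other 42 peaks together, matches per Mb numbered 453 for the antioxidant response core, 383 for TGANNTCA, 174 for the amino acid response core, 139 for the E-box and 122 for the AP-1 site, beside 448, 466, 112, 192 and 150 in all peaks. The stretches of TGA or TCA triplets numbered 6 there, or 105 per Mb beside 52.7 in all peaks. Their rate of 112 in the SLC7A5 peak was thus not particular to it. The single TGACGTCA in all 43 peaks was in the PITPNA promoter peak of the SLC43A2 window, 65.98 kb from the SLC43A2 start and outside that gene. None was found in the 16 promoter peaks of the 10 genes themselves. Of all promoter peaks, 3.59% held TGACGTCA, at 23.8 per Mb, so its absence from 16 peaks is not read as a result. Of the SLC3A2 sites, the widest peak held 2 AP-1 sites, at 766 and 3817 bases, both part of an antioxidant response core, and an amino acid response core at 840 bases. SLC7A1 had amino acid response cores at 7 and 531 bases from its start. Among the RefSeq promoters shown, the E-box at SLC7A5, at SLC43A1 (position -112) and at the internal SLC7A8 start was a motif that 7.26% of 35116 promoters held. The antioxidant response core of the SLC3A2 and SLC7A6 promoters was present in 13.3% of all promoters, TGACGTCA in 1.85%, TGANNTCA in 11.5%, the AP-1 site in 4.95% and the amino acid response core in 3.62%.

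Other genes of the pathway were compared as lists. Of 42 other amino acid transporters, 21 had a promoter peak, or 50% beside the background of 63.4%, and the median of the widest promoter peak was 1280 bases beside 1600 for all coding genes with one. The widest were at SLC1A4, a neutral amino acid transporter related to SLC1A5, with 5090 bases, SLC38A8 with 3550, SLC43A3 with 3310, and the glutamine carriers SLC38A1 with 2860 and SLC38A2 with 2680. None of these reached the width at SLC3A2. The 8 transporters of the first group with a promoter peak had a median of 1605 bases.

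Amino acid response genes had a promoter peak in 20 of 20, beside 63.4% of all coding genes. Their median was 2385 bases, beside 1600 for all coding genes with one. The widest were at DDIT4, an inhibitor of mTORC1, with 9130 bases, at DDIT3 and PPP1R15A, factors of the stress response, with 5340 each, at ATF4 with 5220, and at EIF4EBP1, a translation repressor, with 4700. Peaks covered the whole body of ATF4, DDIT4 and PPP1R15A, and also of CEBPB, a partner of ATF4 that is named here after its value was seen. This share depends on gene length, which was not taken into account. Within the list it went down to 0.379%, and the narrowest of the widest promoter peaks measured 430 bases, close to the narrowest width of the whole peak list. Genes through which mTORC1 senses amino acids had a promoter peak in 22 of 22, beside the same 63.4%. Their median of 1685 bases was close to the 1600 of all coding genes with one. The widest were at NPRL3 with 6350, LAMTOR2 with 2630, SESN1 with 2620, MLST8 with 2510 and SAR1B with 2300. No difference between the lists was tested.

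**Figure D4:**
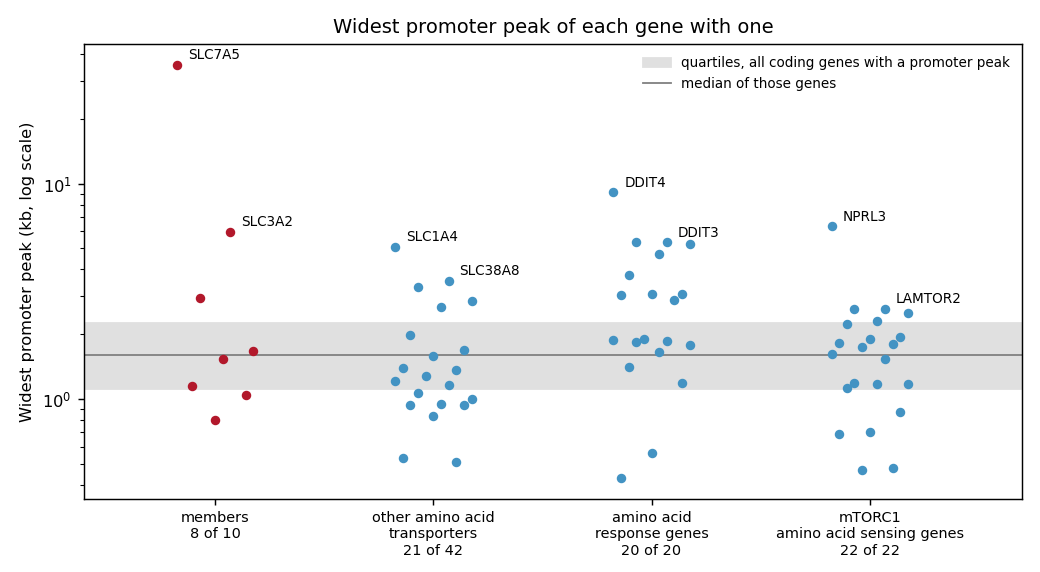
Widest promoter peak in kb (log scale) of each gene with one, for the 10 transporters (members, red) and 3 other lists (blue), with the count of genes that had one below each name. The grey band spans the quartiles of all coding genes with a promoter peak, 1110 to 2250 bases, and the line is their median. SLC7A5, chosen for its width, is at the top of the plot, followed among the 10 transporters by SLC3A2 with 5.99 kb.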

How the data were processed

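Per the submitters' processing notes and the methods, the authors used BWA 0.7.10-r789 for alignment to hg38 and MACS2 2.2.6 for broad peak calling against input, dropped duplicate reads, and filtered out peaks on the ENCODE denylist. The deposited file gives 1 merged list of peaks as chromosome, start, end and name, in bases. The methods describe signal tracks averaged over replicates, and for the peak list how replicates were merged is not given in the sources used here. Coordinates were compared with the hg38 sequence and count from 1. A gene shared by X and Y was counted once. Counts and shares were computed in Python 3.11.15 with 95% Wilson intervals, which cover counting only, and the scripts were tested on simulated data. No significance test was run, because the list holds no replicates.

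The 10 genes, the lists, the motifs and the alternatives were chosen with earlier results of these data known. Named genes were the 10 genes, coding genes with a start site at a peak of their windows, the 5 widest of each list, and the 5 genes of 30 to 50 kb with the largest share of the body in 1 peak.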

Additional observations from a re-analysis of the deposited data

How the results depend on the processing

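No paired analysis was possible because the list merges the H3K27ac replicates and has no column for a replicate, and for the same reason no replicate could be left out. Of 23 alternatives to 8 results, 11 left the value within 1.5 times the main one or within its interval. The 43 peaks became 91 with flanks of 100 kb and 20 with the widest 50% of peaks. The 8 genes with a promoter peak became 3 with the widest 25% of peaks, namely SLC7A5, SLC3A2 and SLC7A2. The share of all coding genes with one moved from 63.4% to 61.7% with a 1 kb window, 61.3% with protein-coding transcripts only, 48.6% with the widest 50% of peaks, 26.5% with the widest 25%, and 58.2% with the start site inside the peak. The rank of the SLC7A5 peak by width moved from 1 to 4 and to 10 when peaks up to 1 and 3 kb apart were joined. Stitching at 25 kb raised the genes with a region past the slope of 1 from 1 to 3. The rate of TGACGTCA moved from 10.7 per Mb, which is 1 match, to 0 in the promoter peaks of the 10 genes alone. A move that rests on 1 match is not read as a result. The list gives no depth, so the sensitivity of the calls at narrow peaks is unknown.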
